A study of Homo sapiens with 61 samples.

Results

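The 8 genes described here encode stress-activated kinases at the top tier of the JNK and p38 cascades. They were chosen by symbol, as MAP3K12 (protein DLK), MAP3K13 (LZK), MAP3K9 (MLK1), MAP3K10 (MLK2), MAP3K11 (MLK3), MAP3K21 (MLK4), MAP3K20 (ZAK) and MAP3K5 (ASK1), out of 58440 genes counted in each library. All 8 were found in both count tables, and all 8 had enough counts to be tested in every comparison. The first 7 belong to the mixed lineage kinase family; MAP3K5 is a MAP3K of another family and was on the list with them.

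Mitogen-activated protein kinase cascades pass a signal through 3 tiers: a MAP3K phosphorylates a MAP2K, which phosphorylates a MAP kinase. In neurons DLK and LZK, which share a leucine zipper region, are known for sensing axon injury and damage to microtubules. They act through MAP2K4 and MAP2K7 on JNK, which phosphorylates transcription factors such as JUN and ATF2. MLK1 to MLK4 carry an SH3 domain and bind the small GTPases RAC1 and CDC42. ZAK is known as a sensor of stalled ribosomes, and ASK1 as a sensor of oxidative stress that is held inactive by thioredoxin. Vincristine, a vinca alkaloid used against tumours, binds tubulin and blocks microtubule assembly.

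Sequencing covered the RNA of 61 libraries. All came from neurons that a doxycycline-inducible NGN2 cassette had driven out of WTC11, an established line of human pluripotent cells. The knockout experiment set 3 lines, DLK KO, LZK KO and the line lacking both (DLK LZK double KO), beside WT, each untreated or with vincristine, with 4 libraries in each of its 8 groups. The CRISPRi experiment (transcriptional silencing at a guide RNA's target) compared neurons with a Control gRNA, which was scrambled, an ATF2 gRNA or a JUN gRNA, all carrying the CRISPRi machinery. It had 5 libraries in each of its 6 groups, except 4 for ATF2 gRNA with vincristine. Vincristine was given at 5 nM for 16 hours from day 14 of differentiation, and "untreated" neurons received the DMSO vehicle. How many clones stand behind each knockout line, and whether replicates were separate differentiations, is not given in the sources used here, so p-values measure the spread between these libraries.

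Reads assigned to genes ran from 8.41 to 14.6 M per library in the knockout experiment and from 38.9 to 88.4 M in the CRISPRi experiment. Small RNA genes took 1.60% to 5.04% of reads in the first and 0.00758% to 0.0141% in the second, so levels are not compared between experiments. Of 6 neuronal markers, MAP2 and STMN2 were at 855 CPM or more in every library, while TUBB3 went down to 14.0 CPM in the first experiment and 5.51 CPM in the second. Of 3 markers of pluripotent cells, POU5F1 and NANOG did not exceed 1.04 CPM, and LIN28A reached 60.2 CPM in the first and 20.9 CPM in the second. CPM are counts scaled to a common library total. The lines of the knockout experiment also differed in genes outside the cascade: the summed CPM of neuronal markers ran from 3689 to 3935 in untreated WT, from 2438 to 2626 in untreated DLK KO and from 4656 to 4867 in untreated double KO. Progenitor and dividing-cell markers, mostly NES, summed to 734 to 775 CPM in untreated WT, 209 to 272 in DLK KO, 512 to 669 in LZK KO and 123 to 129.6 in double KO. Peripheral neuron markers summed to 4.49 to 6.04 CPM in untreated WT and 2.77 to 3.53 in LZK KO. They summed to 45.8 to 49.2 CPM in DLK KO and 176 to 182 in double KO. Glutamatergic markers summed to 313 to 349.9 CPM in untreated WT and 221 to 231 in DLK KO. They were at 178 to 217 CPM in LZK KO and 192 to 216 in double KO. Pluripotent markers summed to 2.11 to 2.77 CPM in untreated WT, 6.24 to 9.95 in DLK KO, 12.0 to 18.1 in LZK KO and 51.7 to 58.0 in double KO. GABAergic markers summed to 0.489 to 1.495 CPM in untreated Control gRNA and 22.2 to 26.2 in untreated ATF2 gRNA neurons. In the same groups, in that order, neuronal markers summed to 4380 to 4906 and 3223 to 3518 CPM. Glutamatergic markers summed to 384 to 425 and 463.5 to 507 CPM, and pluripotent markers to 3.12 to 5.13 and 14.5 to 18.2 CPM. Sums in untreated JUN gRNA neurons were 4510 to 4999 CPM for neuronal, 351 to 369 for glutamatergic and 8.82 to 10.2 for pluripotent markers. The part of such line differences in the results was not tested, and in bulk RNA fewer cells of a type cannot be told apart from less RNA per cell. The guide RNAs were checked on their targets: ATF2 fell from 129 to 0.526 CPM in untreated ATF2 gRNA neurons and JUN from 88.5 to 2.87 CPM in untreated JUN gRNA neurons. JUN also stood at 21.0 CPM in untreated ATF2 gRNA neurons (log2 fold change -2.08 ± 0.10).

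The sequences just before the RefSeq starts are shown for MAP3K13, MAP3K20 and MAP3K21, the 3 members that rose with vincristine in both WT and Control gRNA neurons. Each is the 250 bases before the RefSeq start (GRCh38.p14), 5′ to 3′ on the + strand, which is the strand of all 3 genes. Capitals mark TGACGTCA, the palindromic CRE that ATF2-type factors are known to bind. The sequences lie at chr3:185282711-185282960, chr2:173075596-173075845 and chr1:233327474-233327723. RefSeq starts differ from those of the genes as counted. The counted MAP3K20 gene starts at 173075435, so its whole sequence here lies inside that gene. The counted MAP3K13 gene starts at 185282941, so the end of its sequence lies inside that gene.
MAP3K13: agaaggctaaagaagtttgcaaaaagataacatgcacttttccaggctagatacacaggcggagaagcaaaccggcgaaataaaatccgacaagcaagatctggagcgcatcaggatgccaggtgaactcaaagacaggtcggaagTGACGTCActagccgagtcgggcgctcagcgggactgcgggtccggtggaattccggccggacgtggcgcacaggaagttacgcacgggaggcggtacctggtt
MAP3K20: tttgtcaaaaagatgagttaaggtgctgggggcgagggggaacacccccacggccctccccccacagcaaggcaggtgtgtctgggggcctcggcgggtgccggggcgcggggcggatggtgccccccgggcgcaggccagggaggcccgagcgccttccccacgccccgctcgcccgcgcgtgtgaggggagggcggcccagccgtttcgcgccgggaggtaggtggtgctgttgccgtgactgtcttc
MAP3K21: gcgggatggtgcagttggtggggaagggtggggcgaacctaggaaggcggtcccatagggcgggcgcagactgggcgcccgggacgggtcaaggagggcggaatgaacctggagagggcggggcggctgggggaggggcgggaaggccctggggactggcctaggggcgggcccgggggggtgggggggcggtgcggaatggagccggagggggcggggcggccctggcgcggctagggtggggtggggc

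In a search of windows of 300 bases (the 250 above plus the first 50 after the start), the CRE lay in MAP3K13 at chr3:185282857-185282864, from position -104. It was in 1 of 10 member windows, since MAP3K5 and MAP3K9 have 2 annotated starts each, and in 649 of 35116 windows of all genes (1.85%). The pattern TGANTCA, with any base at N, takes in the AP-1 sites that JUN dimers bind and is wider than them. It was in 0 of 10 member windows and in 2707 of all windows (7.71%). Both strands were searched. The CRE reads the same on either strand, and TGANTCA does not occur within it. A match describes the letters in the window only.

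Per base of transcript (RPKM, CPM per kilobase of summed exons), the members fell into a high and a low set in untreated WT. MAP3K10 led with 13.9 ± 1.14 RPKM (SD, n = 4), ahead of MAP3K12 with 11.4 ± 0.279, MAP3K9 with 8.22 ± 0.368 and MAP3K13 with 7.85 ± 0.153. MAP3K11 followed with 1.99 ± 0.262, MAP3K5 with 0.960 ± 0.117, MAP3K21 with 0.503 ± 0.0344 and MAP3K20 with 0.190 ± 0.0405. Only MAP3K9 and MAP3K13 overlapped among neighbours in this order. In untreated Control gRNA neurons MAP3K12 (15.0 RPKM), MAP3K10 (14.9) and MAP3K9 (12.6) led, with overlapping ranges between neighbours, and MAP3K13 was next after MAP3K11 (3.09), at 2.06 ± 0.0981 (n = 5). MAP3K21 and MAP3K20 were lowest there and overlapped, at 0.378 and 0.256 RPKM.

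The knockouts were first read on their own transcripts. MAP3K12 was at 89.8, 94.3, 90.2 and 89.7 CPM in untreated WT and at 23.7, 25.9, 25.8 and 29.7 CPM in untreated DLK KO. The groups were far apart. By edgeR's quasi-likelihood test, used throughout with Benjamini-Hochberg adjustment over all genes, 28.9% of the WT level remained (log2 fold change -1.79 ± 0.11 (SE), adjusted p = 2.84e-16). In untreated double KO, MAP3K12 was at 21.8, 17.7, 17.4 and 21.7 CPM, 21.6% of WT (-2.21 ± 0.11, adjusted p = 5.55e-19). These levels were also below those of DLK KO, with no overlap (-0.42 ± 0.11, adjusted p = 0.00263).

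MAP3K13 was at 98.9, 101, 99.1 and 96.8 CPM in untreated WT and at 33.0, 34.2, 30.4 and 30.1 CPM in untreated LZK KO. That left 32.2% of the WT level (-1.63 ± 0.06, adjusted p = 5.07e-22). The double KO, at 29.8, 31.0, 30.9 and 26.7 CPM, kept 29.9% (-1.74 ± 0.06, adjusted p = 2.60e-23) and did not differ from LZK KO beyond its error (-0.11 ± 0.06, adjusted p = 0.198). Counts over whole genes do not show which part of a transcript was altered. PCBP2 lies over MAP3K12 on the opposite strand. Untreated, it was at 131 ± 8.21 CPM in WT, 114 ± 4.43 in DLK KO and 89.9 ± 3.23 in double KO (SD, n = 4 each). PCBP2 was called lower than WT in DLK KO (-0.19 ± 0.06) and double KO (-0.54 ± 0.06). Double KO was also below DLK KO (-0.35 ± 0.06). TMEM41A lies over MAP3K13 on the opposite strand. Against WT it was called lower in untreated LZK KO (-0.51 ± 0.12) and not in untreated double KO (-0.14 ± 0.11). The strand setting of the counting is not given in the sources used here, so reads from such partners cannot be told apart.

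**Figure D1:**
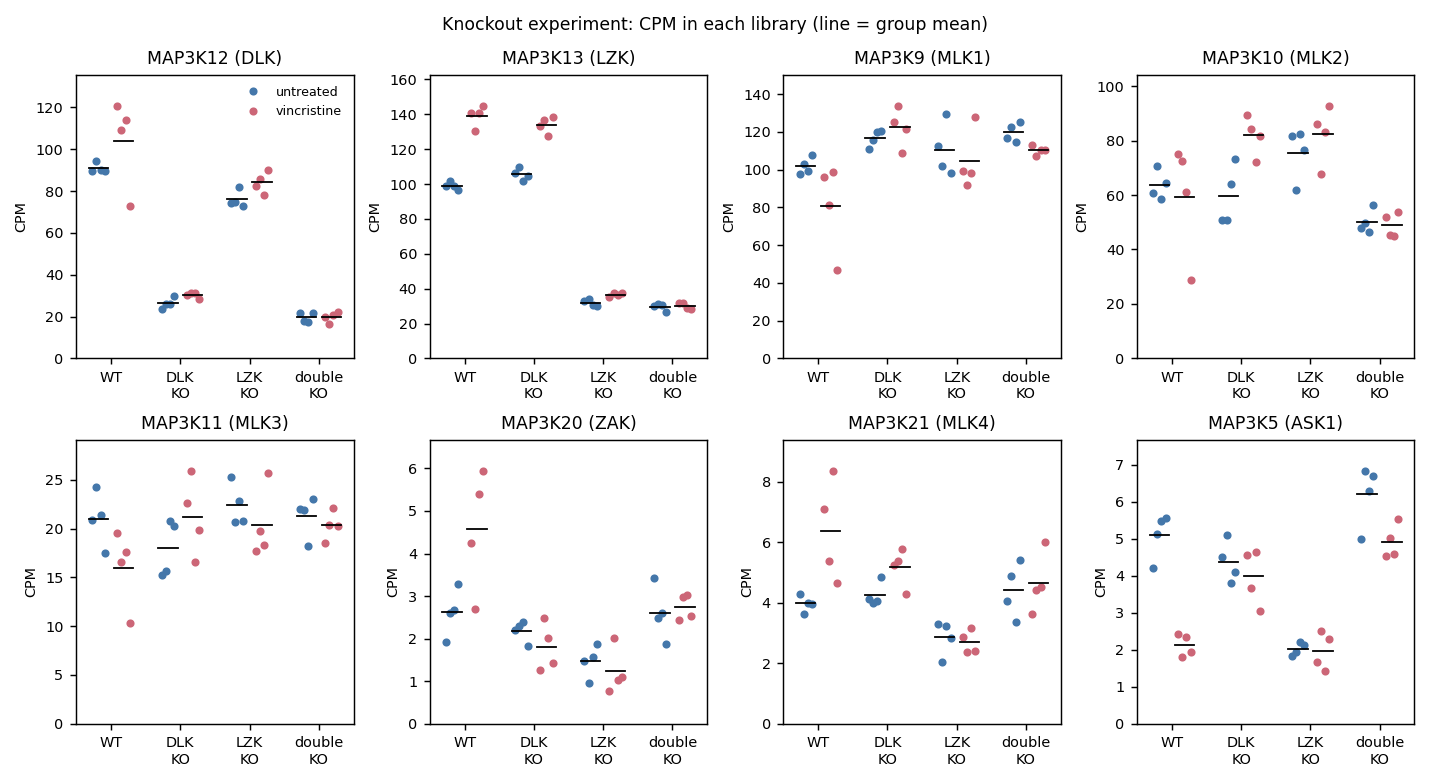
CPM (vertical axis, from 0) of each of the 8 kinase genes in the 32 libraries of the knockout experiment, by line (horizontal axis) and treatment (colour); each point is a library and each line a group mean. MAP3K12 and MAP3K13 keep 28.9% and 32.2% of the untreated WT level in DLK KO and LZK KO, and MAP3K5 falls in WT with vincristine.

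A higher transcript level of DLK or LZK was not called where the other was knocked out. MAP3K13 was at 107, 109.9, 102 and 104 CPM in untreated DLK KO, all above the 4 WT libraries, yet the difference of 0.09 ± 0.06 on the log2 scale did not pass the test (adjusted p = 0.222). Its 95% interval, which covers only the spread between these libraries, ran from -0.02 to 0.21. MAP3K12 was at 74.4, 74.9, 82.1 and 73.0 CPM in untreated LZK KO, all below WT (-0.26 ± 0.10, adjusted p = 0.0447). That call was lost in 9 of 16 alternatives, among them GC content offsets (-0.18, adjusted p = 0.0882), each of the 4 WT libraries left out in turn, and LZK KO replicates 1, 2 and 4 left out in turn.

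No member was called higher in any untreated knockout line against WT by edgeR over all groups, where 16.5%, 17.1% and 23.6% of all genes were called higher in DLK KO, LZK KO and double KO. In DLK KO, 1 of 8 members was called, MAP3K12 itself, where 34.5% of all genes tested were called in either direction. In LZK KO, 4 of 8 were called and all were lower (MAP3K13, MAP3K12, MAP3K20 and MAP3K5), against 33.9% of all genes. In double KO, only the targeted pair was called, 2 of 8 against 45.7% of all genes. The median log2 fold change over the 8 members was -0.16, -0.36 and 0.00 in the 3 lines, and over all genes it was 0.01 in each. These counts and medians include the targeted genes themselves, so they do not describe the paralogs alone. Higher levels were called in other settings for 3 members: MAP3K9 (DLK KO; double KO), MAP3K10 (LZK KO) and MAP3K5 (double KO).

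Whether MAP3K9 and MAP3K10 passed between untreated lines depended on the fit. MAP3K9 was at 111 to 120.5 CPM in DLK KO and at 115 to 126 CPM in double KO, above the 97.5 to 108 CPM of WT with no overlap in either case. Neither difference passed the test (0.20 ± 0.13, adjusted p = 0.272, and 0.24 ± 0.13, adjusted p = 0.152). Both were called with limma voom (0.20, adjusted p = 0.0179, and 0.24, adjusted p = 0.00179) and with only the groups compared (0.20, adjusted p = 0.00635, and 0.22, adjusted p = 0.000307). MAP3K10 in LZK KO was 0.25 ± 0.18 above WT (adjusted p = 0.299), and was called with GC content offsets (0.26, adjusted p = 0.00430), limma voom (0.30, adjusted p = 0.0461) and only the groups compared (0.24, adjusted p = 0.0463). MAP3K10 spread widely within DLK KO, from 50.9 to 73.1 CPM. It was lower in double KO than in LZK KO, 50.2 ± 4.39 against 75.5 ± 9.58 CPM (SD, n = 4 each; -0.59 ± 0.18, adjusted p = 0.00944), while against WT the double KO difference was -0.34 ± 0.18 (adjusted p = 0.124). That difference was called with limma voom (adjusted p = 0.0111) and with only the groups compared (adjusted p = 1.49e-05). MAP3K11 lay between 15.2 and 25.2 CPM across all untreated libraries of this experiment and was called in none of the comparisons between untreated lines.

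The sparsely expressed members stood lowest in LZK KO. MAP3K5 was at 1.82, 1.92, 2.22 and 2.12 CPM in untreated LZK KO, below the 4.21, 5.13, 5.48 and 5.56 CPM of WT (-1.33 ± 0.18, adjusted p = 2.10e-07). In double KO it was at 4.99, 6.82, 6.29 and 6.70 CPM, near WT (0.29 ± 0.15, adjusted p = 0.111; 0.38 and adjusted p = 0.0439 without double KO replicate 1) and above LZK KO without overlap (1.61 ± 0.18, adjusted p = 1.30e-09). The line without LZK and the line without both kinases thus lay on different sides of untreated WT in this gene, and only the first passed the test against it. Double KO also exceeded DLK KO (0.51 ± 0.15, adjusted p = 0.00531), though the ranges of these groups overlapped.

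MAP3K20 was at 1.48, 0.962, 1.57 and 1.88 CPM in untreated LZK KO, just below the lowest of the WT libraries, which were at 1.91, 2.61, 2.67 and 3.28 CPM (-0.82 ± 0.28, adjusted p = 0.0205). These are 8 to 38 reads per library, and the call was lost without LZK KO replicate 2 (adjusted p = 0.0773) or without WT replicate 4 (adjusted p = 0.0663). MAP3K21 was also lower in LZK KO, at 2.85 ± 0.577 against 3.98 ± 0.273 CPM in WT, without passing the test (-0.47 ± 0.20, adjusted p = 0.0673; called without LZK KO untreated replicate 3, adjusted p = 0.0443). Double KO was above LZK KO in both genes, by 0.80 ± 0.28 for MAP3K20 (adjusted p = 0.0213) and 0.62 ± 0.20 for MAP3K21 (adjusted p = 0.0108). For MAP3K20 that call was lost without double KO replicate 1 (adjusted p = 0.0784) or LZK KO replicate 2 (adjusted p = 0.0745). In all, 3 of 8 members were called between double KO and DLK KO and 5 of 8 between double KO and LZK KO, where 46.8% and 39.2% of all genes were called. The first count includes MAP3K13 and the second MAP3K12, each targeted in double KO and not in the line it was compared with.

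The chromosome around MAP3K20 behaved differently from the gene itself in untreated DLK KO. MAP3K20 lies on chromosome 2 (173075435 to 173268010 in GRCh38, + strand), and its own difference from WT was -0.26 ± 0.25 (adjusted p = 0.468). Of the 10 tested genes on each side, 16 of 20 were called lower and 0 higher, where 17.9% and 16.5% of all genes were. The median of these 20 was -1.05, between positions 171687409 and 174787935. The same 20 genes had a median of 0.03 in LZK KO and -0.11 in double KO. ATF2 starts 2.00 Mb from MAP3K20 and was also lower in DLK KO, at 71.0 ± 5.93 against 141 ± 14.0 CPM in WT (-0.99 ± 0.11, adjusted p = 5.75e-09). Its level in double KO was 148 ± 6.22 CPM. The cause of this regional difference was not tested.

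**Figure D2:**
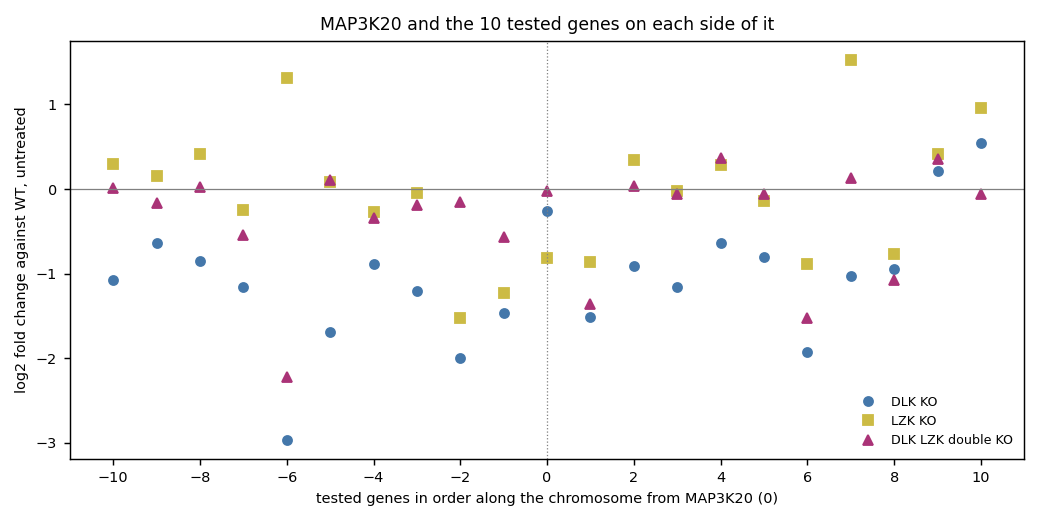
Log2 fold change against WT in untreated neurons (vertical axis) of MAP3K20, at 0 on the horizontal axis, and of the 10 tested genes on each side in chromosome order, for DLK KO (circles), LZK KO (squares) and DLK LZK double KO (triangles). In DLK KO the 20 neighbours have a median of -1.05 while MAP3K20 is at -0.26.

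Vincristine changed several members in WT neurons. MAP3K13, MAP3K20 and MAP3K21 rose and MAP3K5 and MAP3K11 fell, so that 5 of 8 members were called, where 30.2% of all genes were called in either direction. In Control gRNA neurons, the corresponding line of the other experiment, MAP3K13, MAP3K20 and MAP3K21 again rose, and MAP3K9 and MAP3K11 fell, 5 of 8 against 35.3% of all genes. The median over the 8 members was 0.05 in WT and 0.04 in Control gRNA on the log2 scale, since rises and falls were mixed; over all genes it was 0.00 and 0.03.

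The 4th library of vincristine-treated WT stood apart in 4 members. MAP3K12 was at 72.8 CPM there against 121, 109 and 114 CPM in the other 3, MAP3K9 at 46.7 against 96.0, 81.5 and 98.7, MAP3K10 at 28.7 against 75.2, 72.4 and 61.1, and MAP3K11 at 10.4 against 19.6, 16.5 and 17.6. These 4 genes have the highest GC content among the members, 51.7% to 68.4% of the longest transcript against 39.4% to 47.6% in the other 4. Of the other 4, MAP3K13 and MAP3K20 were highest in that library, at 145 and 5.93 CPM. MAP3K21 was lowest there, at 4.64 CPM, and MAP3K5 was neither highest nor lowest. The cause of this deviation was not tested. Estimates of the vincristine effect in WT are therefore given with and without it. With vincristine the summed CPM of progenitor and dividing-cell markers, again mostly NES, ran from 923 to 1951 in WT and from 489.6 to 602 in DLK KO. It ran from 974 to 1168 in LZK KO and from 119.9 to 126 in double KO. It was thus above the untreated range in the first 3 lines and overlapped it in double KO. It ran from 1310 to 1400.2 without and from 2431 to 2527 with vincristine in Control gRNA neurons, from 738 to 815 and from 696 to 805 with the ATF2 gRNA, and from 957 to 1079.7 and from 1656 to 1762 with the JUN gRNA. NES reached 1919 CPM in the knockout experiment and 2494 in the CRISPRi experiment, while MKI67 did not exceed 48.0 and 2.71 CPM. The sums thus do not show how dividing cells changed. The part of these shifts in the results was not tested.

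DLK and LZK transcripts responded unequally to the drug. MAP3K13 rose in WT from 99.1 ± 1.93 to 139 ± 6.13 CPM, with vincristine libraries at 141, 130.4, 141 and 145 CPM, all above the untreated ones (0.49 ± 0.06, adjusted p = 1.34e-08; 0.47 without replicate 4). It rose in DLK KO from 106 ± 3.43 to 134 ± 4.92 CPM, again without overlap (0.34 ± 0.06, adjusted p = 0.000108). The rise was not shown to differ between WT and DLK KO (difference -0.15 ± 0.08, adjusted p = 0.213; 95% interval -0.30 to 0.01). MAP3K13 itself is not the targeted gene in either line.

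The remaining MAP3K13 transcript in the targeted lines moved less. It went from 31.9 to 36.6 CPM in LZK KO (0.20 ± 0.06, adjusted p = 0.0836; 0.22 and adjusted p = 0.0269 with GC content offsets) and from 29.6 to 30.3 CPM in double KO (0.03 ± 0.06, adjusted p = 0.935). The difference from the WT rise was -0.29 ± 0.09 for LZK KO (adjusted p = 0.0202) and -0.46 ± 0.09 for double KO (adjusted p = 0.000125). The first was lost in 4 of 24 alternatives: without LZK KO untreated replicate 2 (adjusted p = 0.0624), without LZK KO vincristine replicate 1 (0.0562), with no filter on low counts (0.277) and with only the groups compared (0.119).

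MAP3K12 did not pass the test for a vincristine effect in any of the 7 lines. In WT its level was 91.0 ± 2.23 CPM untreated and 104 ± 21.4 CPM with vincristine (0.20 ± 0.10, adjusted p = 0.134). Without replicate 4 the 3 other treated libraries gave 0.33 ± 0.07 (adjusted p = 0.000488), and limma voom with quality weights, which gives a deviating library less weight, gave 0.31 (adjusted p = 0.000330). GC content offsets gave 0.20 (adjusted p = 0.0419). With the Control gRNA it was 119 ± 6.96 and 116 ± 7.13 CPM (-0.04 ± 0.05, 95% interval -0.14 to 0.06). The other 5 estimates ran from -0.06 in JUN gRNA to 0.21 in DLK KO. Double KO, with its residual transcript, differed from WT by -0.18 (adjusted p = 0.446), and by -0.32 without WT replicate 4 (adjusted p = 0.0372).

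In the CRISPRi experiment, MAP3K13 was at 27.3, 24.3, 25.5, 25.5 and 27.1 CPM in untreated Control gRNA neurons and at 38.6, 36.4, 40.0, 36.6 and 35.8 CPM with vincristine. The groups did not overlap (0.53 ± 0.06, adjusted p = 2.91e-09), and the estimate stayed between 0.50 and 0.55 in every alternative run. With the ATF2 gRNA it was at 29.0, 28.9, 28.3, 27.3 and 27.9 CPM untreated and 22.8, 27.4, 30.2 and 29.1 CPM with vincristine, which overlapped (-0.05 ± 0.07, adjusted p = 0.806). With the JUN gRNA it rose from 29.5 ± 2.14 to 34.5 ± 1.99 CPM (SD, n = 5 each), with overlap (0.23 ± 0.06, adjusted p = 0.00907). Both guide RNAs differed from Control gRNA in this response, the ATF2 gRNA by -0.58 ± 0.09 (adjusted p = 5.87e-06) and the JUN gRNA by -0.30 ± 0.09 (adjusted p = 0.0145).

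The gene on the opposite strand was called in some of the same lines. TMEM41A rose from 10.1 to 19.6 CPM with vincristine in WT (0.95 ± 0.10) and from 15.7 to 24.9 CPM in Control gRNA neurons (0.67 ± 0.08). It was at 13.2 and 13.6 CPM with the ATF2 gRNA (0.04 ± 0.09) and at 10.6 and 12.1 CPM in DLK KO (0.19 ± 0.11). TMEM41A was at 14.1 and 15.5 CPM with the JUN gRNA (0.13 ± 0.08, adjusted p = 0.337). In DLK KO and with the JUN gRNA, MAP3K13 thus passed the test where TMEM41A did not. The difference in response from WT was called for TMEM41A in DLK KO (-0.77), LZK KO (-0.56) and double KO (-1.06). Its difference from Control gRNA was called with the ATF2 gRNA (-0.63) and the JUN gRNA (-0.54). MAP3K13 was called in the same direction in each of these comparisons except that of DLK KO. How far reads of 1 gene were counted for the other was not tested.

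The balance between LZK and DLK transcripts was read as the log2 ratio of the MAP3K13 count to the MAP3K12 count in each library. In WT the 4 untreated libraries were at 0.14, 0.11, 0.14 and 0.11 and the 4 treated ones at 0.22, 0.25, 0.31 and 0.99. These did not overlap, and the mean rose by 0.32 (2-sided exact permutation p = 0.0286, the smallest that 4 against 4 allows; adjusted over 4 lines p = 0.0381). Without replicate 4 the rise was 0.14, and the 3 remaining treated libraries were still above all untreated ones. With the Control gRNA the ratio rose by 0.57, from -2.20 to -1.63 (exact permutation p = 0.00794, adjusted p = 0.0317, higher in 5 of 5 libraries). With the JUN gRNA it rose by 0.29 (exact permutation p = 0.0238, adjusted p = 0.0381), with overlap. With the ATF2 gRNA it changed by -0.08 (exact permutation p = 0.730). The JUN gRNA call was lost on leaving out any of 7 of its 10 libraries, where the adjusted p was 0.0635, and held without untreated replicate 1 or vincristine replicate 1 or 5.

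**Figure D3:**
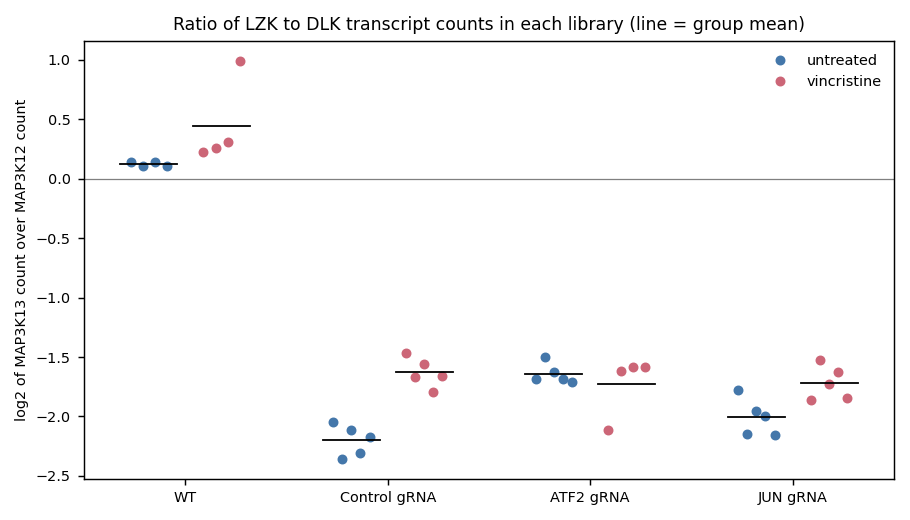
Log2 of the MAP3K13 count over the MAP3K12 count (vertical axis) in each library of the 4 lines in which both genes are intact, untreated or with vincristine; each point is a library and each line a group mean. The treated libraries lie above all untreated ones in WT and Control gRNA neurons, and the WT library at 0.99 is replicate 4.

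MAP3K20, the gene of the ribosome-stalling sensor ZAK, showed the largest vincristine effect among the members in Control gRNA neurons. It was at 3.82, 4.47, 3.80, 2.77 and 2.79 CPM untreated and at 21.5, 21.4, 23.5, 20.5 and 22.5 CPM with vincristine. Every treated library exceeded every untreated one, a 6.21-fold rise on 128 to 257 against 905 to 1897 reads (log2 fold change 2.64 ± 0.14, adjusted p = 5.19e-20). Per base of transcript it moved from the 8th place among the members to the 6th, at 1.59 ± 0.0837 RPKM, above MAP3K5 (1.17 ± 0.168) and MAP3K21 (0.688 ± 0.0908). The estimate lay between 2.52 and 2.73 in every alternative run.

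With the ATF2 gRNA, MAP3K20 was at 7.62, 8.40, 7.56, 7.55 and 6.48 CPM untreated and at 7.69, 8.80, 7.59 and 7.96 CPM with vincristine. The groups overlapped (0.09 ± 0.14, adjusted p = 0.824), and the response differed from that in Control gRNA neurons by -2.55 ± 0.20 (adjusted p = 8.22e-14). The untreated level was itself higher than in Control gRNA neurons, without overlap, by 1.10 ± 0.14 (adjusted p = 1.23e-08). So the ATF2 gRNA neurons sat between the untreated and the treated Control gRNA levels in either condition. Among the 20 genes around MAP3K20, the median in untreated ATF2 gRNA against Control gRNA neurons was 0.10, with 5 called higher and 3 lower. Of all genes, 19.7% were called higher and 20.2% lower there. With vincristine in Control gRNA neurons, 7 of these 20 neighbours were called higher and 0 lower, with a median of 0.27. In that comparison 17.1% of all genes were called higher and 18.1% lower.

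With the JUN gRNA, MAP3K20 was at 4.11, 3.54, 5.22, 4.25 and 5.34 CPM untreated and at 3.90, 5.04, 3.69, 3.29 and 2.24 CPM with vincristine. These groups overlapped (-0.30 ± 0.14, adjusted p = 0.163; -0.45 and adjusted p = 0.0248 without vincristine replicate 2), and the response differed from that in Control gRNA neurons by -2.94 ± 0.20 (adjusted p = 1.05e-15). The 2 differences ran from -2.64 to -2.38 for the ATF2 gRNA and from -3.09 to -2.80 for the JUN gRNA over the alternatives. Both comparisons share the Control gRNA libraries.

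**Figure D4:**
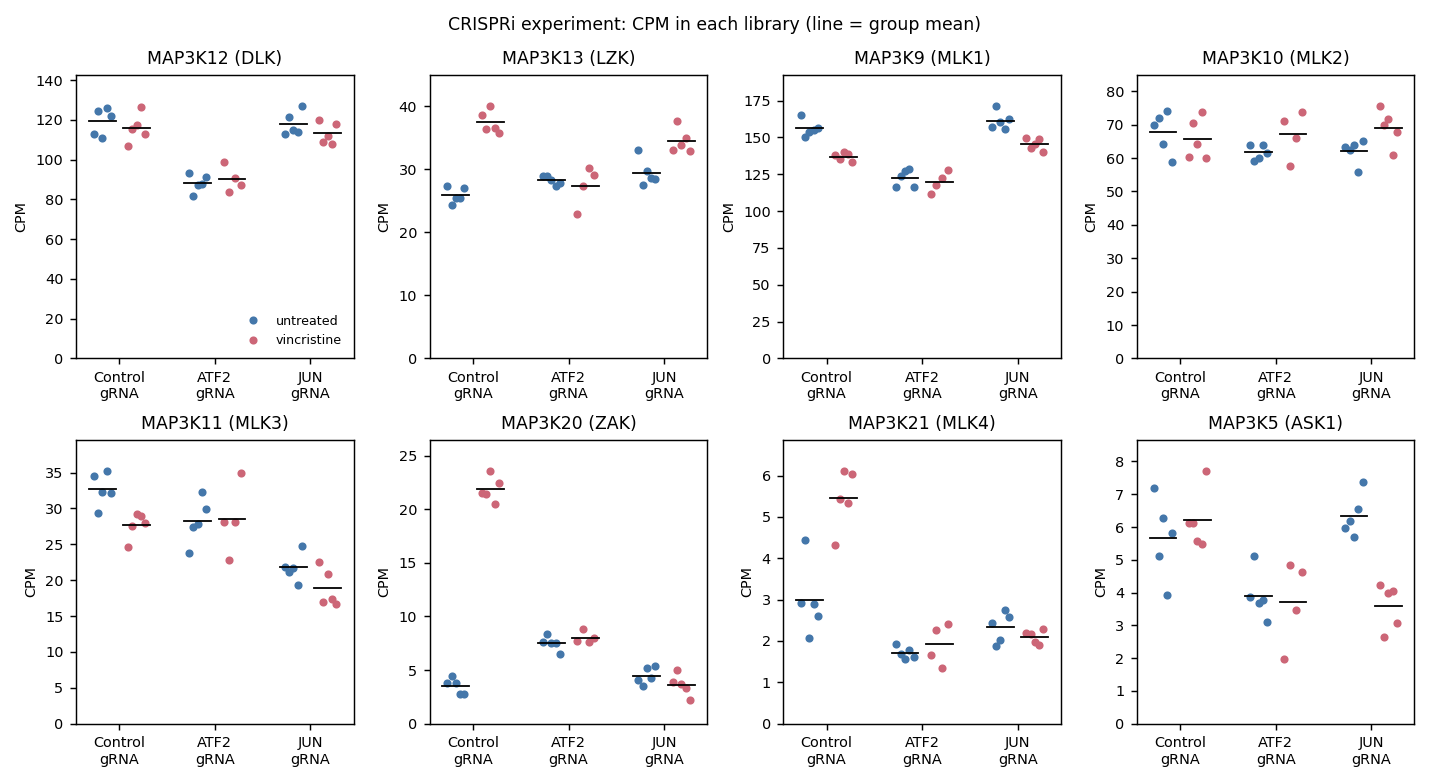
CPM (vertical axis, from 0) of each of the 8 kinase genes in the 29 libraries of the CRISPRi experiment, by guide RNA (horizontal axis) and treatment (colour); each point is a library and each line a group mean. MAP3K20 reaches 20.5 to 23.5 CPM in Control gRNA neurons with vincristine and does not exceed 8.80 CPM in the other libraries.

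In the knockout experiment the MAP3K20 response rested on few reads, and its size was not tested against that in the CRISPRi experiment. In WT it was at 1.91, 2.61, 2.67 and 3.28 CPM untreated and at 4.25, 2.70, 5.39 and 5.93 CPM with vincristine, where replicate 2 overlapped the untreated range. The rise of 0.79 ± 0.23 passed the test (adjusted p = 0.00670) on 30 to 62 reads per treated library. It was 0.65 without replicate 4 (adjusted p = 0.0307), and the call was lost in 1 of 16 alternatives, the fit of only the groups compared (adjusted p = 0.0506). No rise was called in DLK KO (-0.27 ± 0.27), LZK KO (-0.28 ± 0.33) or double KO (0.10 ± 0.24). The difference from WT passed the test for DLK KO (-1.06 ± 0.35, adjusted p = 0.0298) and not for LZK KO (-1.08 ± 0.40, adjusted p = 0.0746) or double KO (-0.69 ± 0.33, adjusted p = 0.146). The LZK KO difference was called in 3 of 24 alternatives, limma voom (adjusted p = 0.0393) and the fits without LZK KO vincristine replicate 2 (0.0215) or WT vincristine replicate 2 (0.0212), and the double KO difference in 1, without WT vincristine replicate 2 (-0.88, adjusted p = 0.0443). For DLK KO it was lost in 8 of 24 alternatives, on GC content offsets (-0.92, adjusted p = 0.0501) and on leaving out replicate 2 or 3 of untreated DLK KO, replicate 1 or 4 of treated DLK KO, replicate 1 of untreated WT, or replicate 3 or 4 of treated WT, with an adjusted p of at most 0.0699. MAP3K20-AS1, the antisense gene over MAP3K20, did not exceed 0.497 CPM in any library of this experiment.

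MAP3K21 (MLK4) rose in parallel in both reference lines. In WT it was at 4.30, 3.63, 4.00 and 3.97 CPM untreated and at 7.09, 5.40, 8.34 and 4.64 CPM with vincristine, with no overlap (0.68 ± 0.17, adjusted p = 0.00225; 0.80 without replicate 4). In Control gRNA neurons it was at 2.93, 4.44, 2.07, 2.90 and 2.61 CPM and at 4.32, 5.45, 6.10, 5.34 and 6.03 CPM, where 1 treated library fell below the highest untreated one (0.87 ± 0.19, adjusted p = 0.000161). The untreated ATF2 gRNA level, 1.71 ± 0.145 CPM, was lower than that of Control gRNA, 2.99 ± 0.883 CPM (-0.79 ± 0.19, adjusted p = 0.000670). The vincristine response was 0.16 ± 0.21 with the ATF2 gRNA and -0.15 ± 0.19 with the JUN gRNA. Its difference from Control gRNA passed the test for the JUN gRNA (-1.02 ± 0.26, adjusted p = 0.00472) and not for the ATF2 gRNA (-0.71 ± 0.28, adjusted p = 0.0647). DESeq2 called the latter (-0.70, adjusted p = 0.0456), as did the fits without ATF2 gRNA vincristine replicate 3 (0.0425) or 5 (0.0331) or without Control gRNA untreated replicate 2 (0.0125). Among the knockouts, the response differed from that of WT by -0.40 without DLK, -0.76 without LZK and -0.61 without both, none of which passed (adjusted p = 0.280, 0.0707 and 0.0798). The LZK KO and double KO differences were each called in 4 of 24 alternatives, among them limma voom (-0.90, adjusted p = 0.0243, and -0.73, adjusted p = 0.00962) and the fit without WT vincristine replicate 4 (-0.88, adjusted p = 0.0256, and -0.73, adjusted p = 0.0232). The other gains came without LZK KO untreated replicate 2 (adjusted p = 0.0426), WT vincristine replicate 2 (0.0462), double KO untreated replicate 3 (0.0397) or double KO vincristine replicate 4 (0.0344).

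MAP3K5, which encodes ASK1, was called lower with vincristine in WT and was not called in Control gRNA neurons. The experiments were fitted apart, so these responses were not tested against each other. In WT it went from 4.21, 5.13, 5.48 and 5.56 to 2.43, 1.80, 2.35 and 1.94 CPM, with no overlap (-1.26 ± 0.17, adjusted p = 3.95e-07), on 44 to 78 and 18 to 27 reads per library. The fall was -1.22 without replicate 4. The change was -0.13 ± 0.16 without DLK, -0.06 ± 0.22 without LZK and -0.34 ± 0.15 without both (adjusted p = 0.802). Each differed from the WT response, DLK KO by 1.12 ± 0.24 (adjusted p = 0.000760), LZK KO by 1.20 ± 0.28 (adjusted p = 0.00324) and double KO by 0.92 ± 0.23 (adjusted p = 0.00352). All 3 comparisons share the WT libraries, and all 3 calls held in each of their 24 alternatives. The untreated LZK KO level of 2.02 CPM already stood at that of treated WT, 2.13 CPM.

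In Control gRNA neurons MAP3K5 was at 5.67 ± 1.23 CPM untreated and 6.20 ± 0.890 CPM with vincristine (n = 5 each; 0.12 ± 0.17, 95% interval -0.22 to 0.47). With the JUN gRNA it fell from 5.96, 6.17, 5.68, 6.55 and 7.39 to 4.24, 2.65, 3.98, 4.04 and 3.08 CPM, with no overlap (-0.82 ± 0.18, adjusted p = 0.000548). The JUN gRNA response differed from that of Control gRNA by -0.94 ± 0.25 (adjusted p = 0.00529), in all 28 alternatives. With the ATF2 gRNA the response was -0.07 ± 0.19. The untreated level with this guide RNA was 3.91 ± 0.733 CPM, lower than Control gRNA (-0.54 ± 0.18, adjusted p = 0.0126), a call lost without Control gRNA untreated replicate 1 (-0.44, adjusted p = 0.0581).

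Among the SH3-containing kinases, MAP3K9 and MAP3K11 fell in some lines. In Control gRNA neurons MAP3K9 went from 165, 150.0, 154, 155 and 156 to 138, 136, 140.0, 138 and 133 CPM, with no overlap (-0.19 ± 0.04, adjusted p = 9.77e-05). With the JUN gRNA it fell from 161 ± 6.18 to 145 ± 3.99 CPM (-0.15 ± 0.04, adjusted p = 0.00407), and with the ATF2 gRNA it was at 122 and 119.9 CPM (-0.03 ± 0.04). The difference of 0.16 ± 0.06 between ATF2 gRNA and Control gRNA (adjusted p = 0.0381) was lost in 13 of 27 alternatives, 11 of which left out a library; the adjusted p over these 13 was at most 0.169. In WT the estimate was -0.33 ± 0.13 (adjusted p = 0.0611) and -0.15 without replicate 4 (adjusted p = 0.199), while GC content offsets with that library kept gave -0.33 (adjusted p = 0.0314). It was called in 4 further alternatives, DESeq2 (adjusted p = 0.0390), no filter on low counts (0.0433), and without vincristine replicate 1 (0.0245) or 3 (0.0217).

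MAP3K11 fell in Control gRNA neurons from 34.5, 29.3, 32.3, 35.2 and 32.2 to 24.6, 27.6, 29.2, 28.9 and 28.0 CPM, narrowly without overlap (-0.24 ± 0.09, adjusted p = 0.0296). The call was lost without untreated replicate 1 (adjusted p = 0.0758), untreated replicate 4 (0.0858) or vincristine replicate 1 (0.107). In WT it went from 21.0 ± 2.77 to 16.0 ± 3.97 CPM, with overlap (-0.39 ± 0.15, adjusted p = 0.0455). Without the 4th treated library this was -0.24 (adjusted p = 0.177); the call was lost in 9 of 16 alternatives, 6 of which left out a library (WT untreated replicates 1, 2 and 3 and vincristine replicates 2, 3 and 4), and kept with GC content offsets (-0.34, adjusted p = 0.0121). DLK KO differed from WT in this response by 0.63 ± 0.21 (adjusted p = 0.0319), which was lost in 9 of 24 alternatives, with an adjusted p of at most 0.101, among them GC content offsets (0.41, adjusted p = 0.0527) and the fit without WT vincristine replicate 4 (0.47, adjusted p = 0.0622). The other losses came from fitting just these groups and from leaving out replicate 1 or 2 of DLK KO, untreated or treated, or replicate 2 or 3 of untreated WT. MAP3K10 was not called for a vincristine effect in any line, with estimates from -0.10 in WT to 0.46 ± 0.18 in DLK KO (adjusted p = 0.120; 95% interval 0.11 to 0.80). The WT estimate was 0.13 without replicate 4. In DLK KO it went from 59.8 ± 10.9 to 81.9 ± 7.27 CPM (SD, n = 4 each), a rise that was called with limma voom (adjusted p = 0.00431) and with only the groups compared (adjusted p = 0.0130). The JUN gRNA estimate was called without vincristine replicate 4 (0.20, adjusted p = 0.0359).

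**Figure D5:**
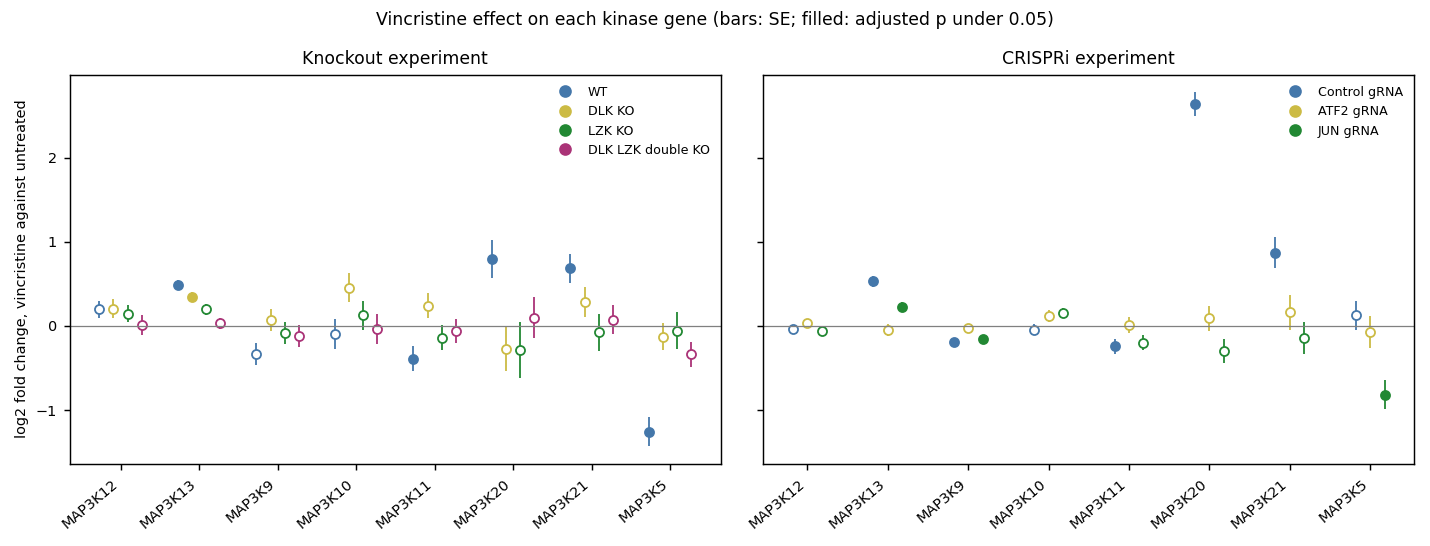
Log2 fold change with vincristine (vertical axis) of each kinase gene (horizontal axis) in each line, with bars of 1 SE; filled points passed the test at an adjusted p under 0.05. MAP3K20 stands at 2.64 in Control gRNA neurons against 0.09 with the ATF2 gRNA and -0.30 with the JUN gRNA, and MAP3K5 at -1.26 in WT against -0.13, -0.06 and -0.34 in the knockout lines.

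The number of members called with vincristine fell with the knockouts and guide RNAs, as did the number of all genes called. It was 1 of 8 in DLK KO (6.53% of all genes), 0 of 8 in LZK KO (3.88%) and 0 of 8 in double KO (0.0658%). It was 0 of 8 with the ATF2 gRNA (6.1%) and 3 of 8 with the JUN gRNA (15.9%). At an unadjusted p under 0.05, 1 member was below in LZK KO (MAP3K13), 1 in double KO (MAP3K5) and 0 with the ATF2 gRNA; DESeq2 called 0 members in each of these 3 lines. Differences in response from the reference line were called for 3 of 8 members in DLK KO (19.4% of all genes), 2 in LZK KO (12.4%), 2 in double KO (19.4%), 3 with the ATF2 gRNA (20.6%) and 4 with the JUN gRNA (15.8%). The counts for LZK KO and double KO include the targeted MAP3K13.

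Untreated neurons with either guide RNA were also compared with untreated Control gRNA neurons. Against untreated Control gRNA, 5 of 8 members were called with the ATF2 gRNA (1 higher and 4 lower; 39.9% of all genes) and 1 of 8 with the JUN gRNA (11.2%). MAP3K12 was at 93.4, 81.9, 87.2, 87.8 and 91.4 CPM with the ATF2 gRNA, below the 113, 125, 111, 126 and 122 CPM of Control gRNA (-0.43 ± 0.05, adjusted p = 3.64e-10), and PCBP2 on its opposite strand went the other way (0.32 ± 0.04). MAP3K9 was at 122 ± 5.76 against 156 ± 5.71 CPM, also without overlap (-0.35 ± 0.04, adjusted p = 1.93e-10). MAP3K13 was higher in every ATF2 gRNA library than in any Control gRNA library, without passing the test (0.12 ± 0.06, adjusted p = 0.133). With the JUN gRNA, MAP3K11 was at 21.9, 21.1, 21.7, 19.4 and 24.8 CPM against 34.5, 29.3, 32.3, 35.2 and 32.2 CPM in Control gRNA (-0.59 ± 0.09, adjusted p = 4.46e-06). MAP3K13 was 0.18 ± 0.06 higher there, with an adjusted p = 0.0570. It was called in 4 alternatives: DESeq2 (adjusted p = 0.0326), limma voom (0.0125), a mean of at least 1 CPM (0.0464) and the fit without JUN gRNA untreated replicate 2 (0.0462).

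The rest of the cascade was described from lists, whose counts stand beside the 30.2% of all genes called with vincristine in WT and the 35.3% called in Control gRNA. Of 11 other MAP3K genes tested in WT (of the 13 listed), vincristine raised 4 and lowered 1, and of 12 in Control gRNA it raised 4 and lowered 2. MAP3K14, the NF-kappaB-inducing kinase, rose most in WT (0.64 ± 0.12), MAP3K2 rose most in Control gRNA (0.59 ± 0.09), and MAP3K3 fell most in both (-0.73 ± 0.13 and -0.42 ± 0.06). Among 9 upstream MAP4K and GTPase genes, 1 rose and 1 fell in WT (TNIK, 0.26 ± 0.07, and MAP4K5, -0.26 ± 0.07), and 1 rose and 2 fell in Control gRNA (from MAP4K4, 0.08 ± 0.03, to MINK1, -0.19 ± 0.05).

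Among the MAP2K, JNK and p38 genes, no gene was called higher with vincristine in WT or Control gRNA neurons. In DLK KO 1 MAP2K gene was called higher, and 1 with the JUN gRNA. Of the 4 MAP2K genes of the JNK and p38 branches, 0 rose, 1 fell in WT and 3 fell in Control gRNA, with MAP2K3, a p38 activator, lowest in both (-0.68 ± 0.17 and -0.53 ± 0.14). Of 7 JNK and p38 genes, 0 rose, 1 fell in WT (MAPK9, encoding JNK2, -0.13 ± 0.05) and 3 fell in Control gRNA (lowest MAPK14, encoding p38 alpha, -0.23 ± 0.07). Of 5 scaffold genes, 2 rose in each line, and 0 fell in WT and 2 in Control gRNA. MAPK8IP1, which encodes the JNK scaffold JIP1, rose most (0.78 ± 0.14 and 0.82 ± 0.06). Of 5 genes for proteins that control DLK turnover, such as the ubiquitin ligase MYCBP2, 0 were called in WT by edgeR or DESeq2 (0 at an unadjusted p under 0.05), and in Control gRNA 2 rose (most HSP90AA1, 0.22 ± 0.05) and 1 fell (HSP90AB1, -0.12 ± 0.02).

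The highest estimates were among the outputs. Of 5 dual-specificity phosphatase genes, whose products switch MAP kinases off, 4 rose and 1 fell in each reference line, from DUSP16 (2.41 ± 0.09 in WT and 2.03 ± 0.07 in Control gRNA) to DUSP4 (-0.39 ± 0.09 and -0.18 ± 0.03). Of 10 transcription factor genes downstream of JNK and p38, 7 rose and 1 fell in WT and 6 rose and 1 fell in Control gRNA. ATF3, a stress-induced factor, rose most (3.98 ± 0.11 and 3.48 ± 0.07), while ATF7 fell in WT (-0.26 ± 0.09) and ELK1 in Control gRNA (-0.23 ± 0.06). JUN rose by 1.86 ± 0.14 in WT and 1.42 ± 0.10 in Control gRNA, and its change with the ATF2 gRNA was -0.03 ± 0.11. In double KO, 0 of the 56 tested genes on these lists were called with vincristine by edgeR or DESeq2, and 2 had an unadjusted p under 0.05, while 24 of 56 were called in WT. Among all genes 0.0658% were called in double KO and 30.2% in WT.

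The genes whose levels followed the DLK and LZK transcripts most closely were picked by the smallest root mean square difference of centred log2 CPM over libraries, as a description. Over the 29 CRISPRi libraries these were RUNDC3A, MTA3 and GNAS for MAP3K12 (0.07 for each) and TSTD2, ZBTB10 and NBPF1 for MAP3K13 (0.10 to 0.12). The median over 12728 genes was 0.27 for MAP3K12 and 0.29 for MAP3K13. Over the 16 WT and LZK KO libraries they were EEF1D, TMEM175 and CTNNBIP1 for MAP3K12, and over the 16 WT and DLK KO libraries CHTF8, TSTD2 and TCF12 for MAP3K13 (0.09 for each). TSTD2 was the name that the 2 MAP3K13 searches shared. The points share library preparation and depth, and the search ran over all genes with a mean log2 CPM of at least 1.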

How the data were processed

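RNA was sequenced as 61 poly(A) libraries. Per the submitters' processing notes, which name tools without their settings, the tools were cutadapt 3.4, STAR and featureCounts of Subread 2.0.1, with the build GRCh38. The deposited values are raw counts per gene in featureCounts format, 1 table per experiment. Per the file headers, the alignments had duplicates marked. Strand setting and duplicate handling in counting are not given in the sources used here.

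The members were matched by GENCODE 29 identifiers; 58320 of 58440 identifiers had a symbol. Each table was fitted whole with edgeR 4.0.16 (R 4.3.3; TMM, filterByExpr, robust quasi-likelihood, all groups of an experiment in 1 fit, no block), which tested 18235 and 20759 genes over 19 comparisons. Adjusted p is Benjamini-Hochberg over all genes of a comparison, and a gene is called under 0.05. Errors of fold changes are SE, 95% intervals are from the fit, and errors of levels are SD. Named genes were all 8 members, the called genes with the highest and the lowest fold change of each pathway list in WT and in Control gRNA, JUN and ATF2, and the 3 genes nearest in pattern to MAP3K12 or MAP3K13; neighbouring and overlapping genes are given beside the member they lie by. Ratios used a prior count of 0.5 and exact 2-sided permutation tests. Alternatives were DESeq2 1.42.0, RLE factors, 2 other filters, a replicate block, only the groups compared, limma 3.58.1 voom with quality weights, each of 61 libraries left out, and GC content offsets, the last added after seeing the data. The fit was tested on simulated data. No 2 replicates agreed within counting noise (lowest chi-square per degree of freedom 1.58 over 104 pairs). The members and lists were chosen with earlier results of these data known.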

Additional observations from a re-analysis of the deposited data

Results flagged for a closer look

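In 3 of 112 groups of libraries checked, the highest or lowest library lay far from the rest by Dixon's criterion, which chance alone meets in about 1 of 20 groups. MAP3K12 was at 94.3 CPM in WT untreated replicate 2, MAP3K21 at 4.84 CPM in DLK KO untreated replicate 4, and MAP3K10 at 55.9 CPM in JUN gRNA untreated replicate 4.

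Responses to vincristine differed from the reference line, by the test of the difference itself, in 14 cases. Against WT, DLK KO differed in MAP3K11 (0.63), MAP3K20 (-1.06) and MAP3K5 (1.12), LZK KO in MAP3K13 (-0.29) and MAP3K5 (1.20), and double KO in MAP3K13 (-0.46) and MAP3K5 (0.92). Against Control gRNA, the ATF2 gRNA differed in MAP3K13 (-0.58), MAP3K9 (0.16) and MAP3K20 (-2.55), and the JUN gRNA in MAP3K13 (-0.30), MAP3K20 (-2.94), MAP3K21 (-1.02) and MAP3K5 (-0.94), all as differences of log2 fold changes.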

How the results depend on the processing

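Of 152 tests on single members, 49 were called, of which 38 kept their call and direction in every alternative run and 11 lost it in at least 1; of 103 not called, 23 were called in some alternative, and none of the called values changed sign. With limma voom and quality weights the number of members called was 2 in untreated DLK KO and 4 in untreated double KO against WT, 2 for vincristine in DLK KO, 4 for the difference of LZK KO and 4 for that of double KO from WT, and 2 in untreated JUN gRNA. With only the groups compared it was 2 in untreated DLK KO, 4 in untreated double KO, 3 for vincristine in WT, 2 for vincristine in DLK KO and 1 for the difference of LZK KO. With GC content offsets, chosen after seeing the data, it was 1 for vincristine in LZK KO and 1 for the difference of DLK KO, and MAP3K12 in untreated LZK KO was -0.18. The difference of LZK KO was 1 member with no filter on low counts. Untreated JUN gRNA had 2 with DESeq2 and 2 with a mean of at least 1 CPM. Ranked by CPM without length, 4 of 8 members kept their place in untreated WT and 3 of 8 in untreated Control gRNA. Leaving out single libraries gave from 2 to 5 members in untreated LZK KO, from 1 to 3 for the difference of DLK KO, from 1 to 4 for that of LZK KO, from 2 to 4 for that of double KO and from 1 to 2 in untreated JUN gRNA. It also gave from -0.33 to -0.24 for MAP3K12 in untreated LZK KO and from 0.24 to 0.35 for the ratio with the JUN gRNA. Depth limits MAP3K20, MAP3K21 and MAP3K5 most in the knockout experiment, where MAP3K20 had as few as 7 reads.

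Replicate numbers are shared between groups, but the labels name no shared batch, and same-numbered libraries did not deviate together: the correlation of their deviations ran from -0.18 to 0.11 over 16 pairs and from -0.04 to 0.05 over 14 pairs, and 4 and 5 of these correlated best with their own number. With the replicate block MAP3K12 in untreated LZK KO was -0.26 (adjusted p = 0.0605), and the calls of MAP3K11 for vincristine in WT (adjusted p = 0.0609) and of MAP3K9 for the difference of the ATF2 gRNA (adjusted p = 0.0517) were lost as well.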
